A study of Homo sapiens with 91 samples.

Results

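Chromatin remodellers are enzymes that use ATP to slide, evict or exchange nucleosomes, and Polycomb proteins are repressors that mark histones and hold genes in a silent state. The remodellers fall into families named after their motor subunit. SWI/SNF complexes open regulatory DNA, ISWI complexes space nucleosomes, CHD enzymes include the motors of the deacetylating NuRD complex, and the INO80 class exchanges histone variants. Polycomb works through PRC2, which methylates histone H3, and PRC1, which ubiquitinates histone H2A.

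The genes described here are 44 remodelling and Polycomb genes, chosen by name and not by any measured value, among 57820 genes in the files. They comprise 12 SWI/SNF genes, 7 genes of ISWI motors and their BAZ and BPTF partners, 8 CHD genes, 4 genes of the INO80 class and ATRX, and 13 Polycomb genes. RNA was counted by MATQ-seq, which copies the whole RNA of a cell and attaches a random barcode to each cDNA, so that a barcode stands for a captured copy and not for an amplified one. The libraries were made from 38 single cells and from 10 averaged aliquots, which were split from pooled cells, and all came from 1 clone of HEK293T, a human embryonic kidney line that carries the SV40 large T antigen. No treatment is given in the labels. The design asks which RNAs vary more from cell to cell than from aliquot to aliquot of a shared pool. The labels do not say that the libraries came from separate cultures, so p-values measure only the spread between these libraries, and mean levels of the 2 kinds of library were compared without a test.

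A single cell gave 231131 ± 51823 exonic barcodes (SD, n = 38) and an aliquot 188547 ± 41723 (SD, n = 10). Introns held 52.8% ± 8.27 of a cell's barcodes and 57.6% ± 1.66 of an aliquot's. Levels are given as CPM, barcodes per 1000000 exonic or intronic barcodes of the library after scaling by TMM factors. The HEK293T markers IRS4, AMOT and LIN28B were present in all 38 cells and all 10 aliquots, and PAX2 in 17 cells and 6 aliquots. The summed level of 6 MCF10A markers ranged from 0 to 63.8 CPM in cells and from 0 to 13.1 CPM in aliquots, with KRT17 at 0 in all 48 libraries. Sums of 4 fibroblast markers, with LUM at 0, reached 48.9 CPM in cells and 31.5 CPM in aliquots, and sums of 3 blood markers reached 20.4 CPM in cells and 10.5 CPM in aliquots.

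Promoters are shown for 6 genes picked from those named in the results, as the 200 bases before the RefSeq transcription start. RBBP4, SUZ12 and BAZ2A had the 3 smallest p-values for exonic spread and EZH2 the smallest for intronic spread, and ARID1A and PBRM1 had one of the highest coefficients between pairs of the 44 across cells. The RefSeq table, on build GRCh38.p14, matched 34 of the 44 genes. The window of RBBP4 lies at chr1:32651008-32651207 and that of SUZ12 at chr17:31936807-31937006, both on the plus strand. That of EZH2 lies at chr7:148884292-148884491 on the minus strand and that of ARID1A at chr1:26695815-26696014 on the plus strand. PBRM1 lies at chr3:52685914-52686113 and BAZ2A at chr12:56636360-56636559, both on the minus strand. Each is written 5′ to 3′ along the gene, and capitals mark the words searched for, on either strand.
RBBP4: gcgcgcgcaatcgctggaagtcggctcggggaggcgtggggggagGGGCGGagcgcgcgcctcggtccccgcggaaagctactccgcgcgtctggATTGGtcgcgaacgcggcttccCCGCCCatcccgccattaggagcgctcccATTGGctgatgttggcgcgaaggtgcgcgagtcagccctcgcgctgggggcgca
SUZ12: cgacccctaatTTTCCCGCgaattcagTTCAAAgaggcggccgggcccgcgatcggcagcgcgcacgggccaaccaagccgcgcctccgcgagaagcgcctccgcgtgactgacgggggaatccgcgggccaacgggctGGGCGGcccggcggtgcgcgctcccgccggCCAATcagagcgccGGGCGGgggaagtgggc
EZH2: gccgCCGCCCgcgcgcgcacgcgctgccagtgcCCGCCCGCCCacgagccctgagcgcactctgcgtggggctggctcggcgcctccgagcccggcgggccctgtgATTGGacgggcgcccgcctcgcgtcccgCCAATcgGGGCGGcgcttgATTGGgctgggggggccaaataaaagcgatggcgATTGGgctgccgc
ARID1A: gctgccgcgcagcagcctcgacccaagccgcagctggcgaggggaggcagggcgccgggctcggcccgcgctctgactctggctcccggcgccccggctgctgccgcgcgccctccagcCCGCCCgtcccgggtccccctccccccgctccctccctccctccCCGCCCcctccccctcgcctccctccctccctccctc
PBRM1: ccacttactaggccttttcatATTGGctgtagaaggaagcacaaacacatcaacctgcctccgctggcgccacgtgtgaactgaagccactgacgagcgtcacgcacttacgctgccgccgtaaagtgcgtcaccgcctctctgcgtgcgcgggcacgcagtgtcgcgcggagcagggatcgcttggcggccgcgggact
BAZ2A: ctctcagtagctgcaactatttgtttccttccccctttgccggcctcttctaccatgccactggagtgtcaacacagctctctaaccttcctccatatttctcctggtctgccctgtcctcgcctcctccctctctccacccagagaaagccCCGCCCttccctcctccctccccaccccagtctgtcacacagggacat

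The words were the CCAAT box (CCAAT), the GC box (GGGCGG), an ETS word (CCGGAAG), the E2F words TTTGGCGC and TTTCCCGC, and the cell-cycle homology region (TTTGAA). Matches can overlap, as 2 GC boxes do in the EZH2 window. Each of the 34 genes has 1 window, chosen from 52 listed, at the start nearest that of its longest principal protein-coding transcript. The windows over all genes were not chosen in this way and hold every listed start, so the 2 sets differ in kind. CCAAT was found in 12 of the 34 windows (35.3%), and in 28.03% of 35116 windows of the same length over all genes. EZH2 held 4 CCAAT matches and RBBP4 held 2. GGGCGG was in 24 of the 34 windows (70.6%) against 40.1% of all windows. The median G and C content was 70% in the windows of these genes and 59% in all windows, and its part in the share with a GC box was not tested. TTTCCCGC and TTTGAA were each in 1 of the 34 windows, that of SUZ12, against 1.11% and 10.3% of all windows. TTTGGCGC was in 0 of the 34 against 0.447%, and CCGGAAG in 2, those of CHD4 and EP400, against 7.71%. A match is a description of these letters and not a binding site.

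The 44 genes together took a like part of the exonic RNA in cells and aliquots. Their summed exonic level in cells was 10007 ± 551 CPM (SD, n = 38, range 8999 to 11221), and in aliquots 10097 ± 556 CPM (SD, n = 10, range 9289 to 11103). The SD of this sum was 5.51% of the mean in cells and 5.51% in aliquots. By family, SWI/SNF genes summed to 2738 ± 284 CPM in cells against 2821 ± 247 CPM in aliquots, and Polycomb genes to 1538 ± 171 CPM against 1624 ± 122 CPM. ISWI and BAZ genes summed to 1884 ± 165 CPM in cells against 1769.7 ± 215 CPM in aliquots, CHD genes to 2171 ± 226 CPM against 2199.7 ± 227 CPM, and the INO80 class with ATRX to 1676 ± 273 CPM against 1683 ± 207 CPM. In introns the sum was 6393 ± 1013 CPM over cells and 6872 ± 517 CPM over aliquots, an SD of 15.8% and 7.53% of the mean.

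Of the 44 genes, 43 passed the exonic filter of a mean of at least 10 CPM over the 48 libraries. The exception was SMARCC2, a core SWI/SNF scaffold, which is listed at 0 for exons and introns in all 48 libraries. A count of 0 allows up to 9.18 to 22.99 exonic CPM in a cell and 10.5 to 19.7 CPM in an aliquot, with 3 barcodes as the limit, which covers counting error only. The annotation places exons of SMARCC2 over those of MYL6 on the other strand. Every cell held at least 41 of the genes, and 40 of them had a barcode in all 38 cells.

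**Figure D1:**
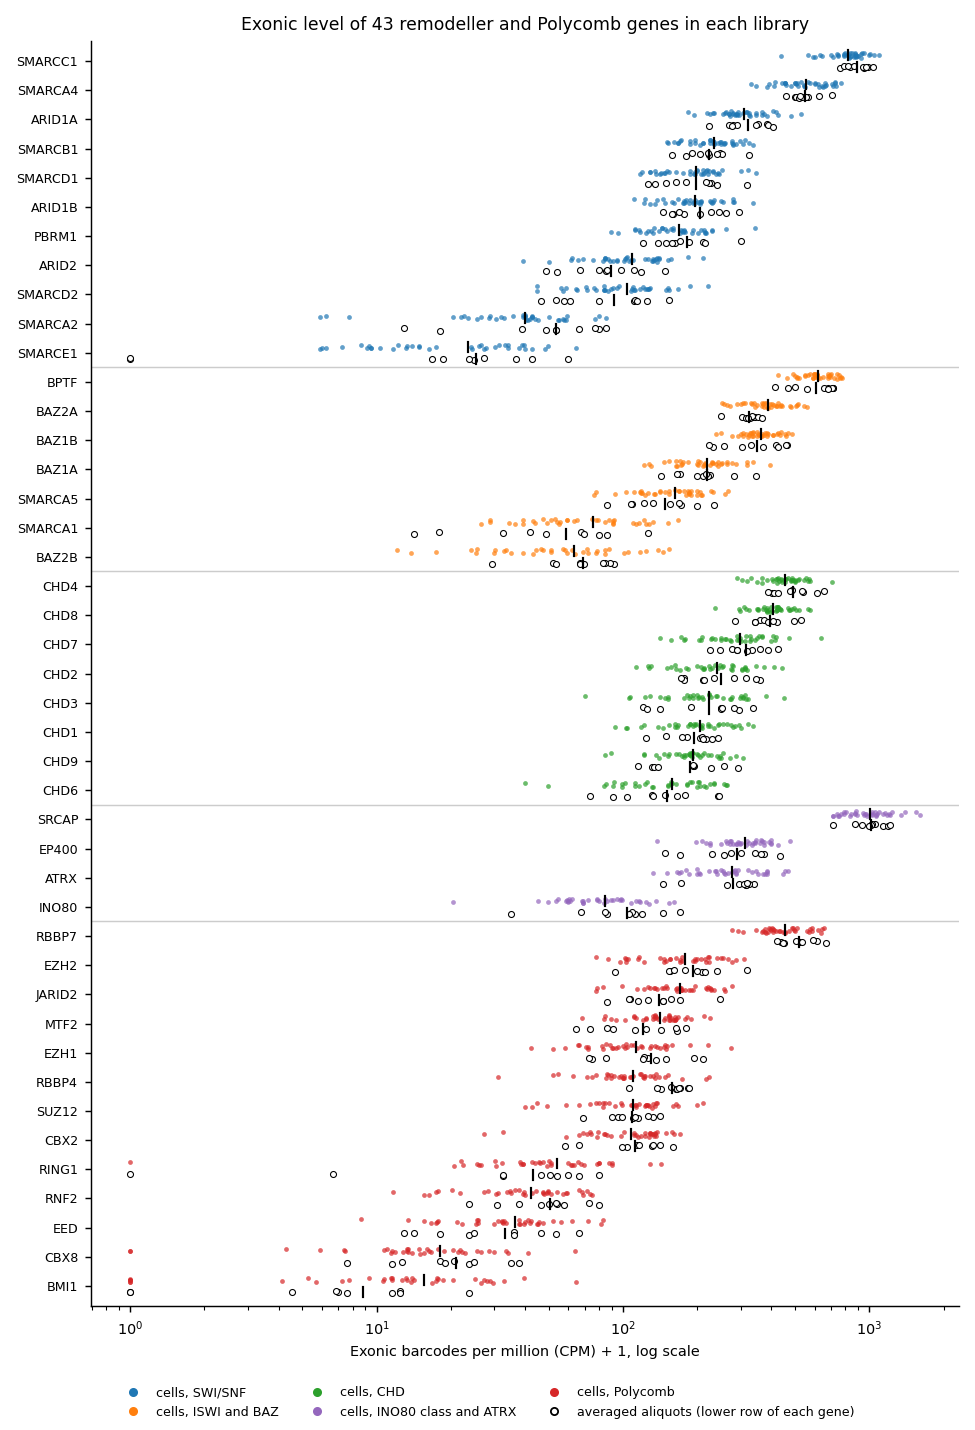
Exonic level of 43 genes in each library, in CPM plus 1 on a log axis, grouped by family and ordered by the mean over cells. Coloured points are the 38 cells, open points in the lower row of each gene are the 10 averaged aliquots, and bars are group means. For each of the 43 genes the range of the cells overlapped that of the aliquots. Such overlap was not counted over all genes, so it does not set the 43 apart.

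Per kilobase of the principal transcript, the histone-binding protein RBBP7 had the highest exonic level, 195 ± 42.7 CPM per kilobase in cells (SD, n = 38) and 222 ± 35.5 in aliquots (SD, n = 10). The scaffold SMARCC1 followed with 128 ± 21.6 CPM per kilobase in cells and 140.1 ± 14.7 in aliquots. The SWI/SNF motor SMARCA4 had 94.97 ± 20.2 in cells and 94.5 ± 12.2 in aliquots, and SRCAP, a motor that deposits the histone variant H2A.Z, 85.5 ± 18.96 and 86.2 ± 12.7. Of the 42 neighbouring pairs in this order, 2 differed by more than the larger of their SDs over cells, RBBP7 over SMARCC1 and SMARCC1 over SMARCA4. At the low end stood the SWI/SNF subunit SMARCE1 with 3.62 ± 2.37 CPM per kilobase in cells and 3.91 ± 2.91 in aliquots, the PRC1 subunit BMI1 with 4.26 ± 3.74 and 2.27 ± 1.95, and the PRC1 reader CBX8 with 4.50 ± 3.10 and 5.30 ± 2.56. SMARCE1 and BMI1 share exons on the same strand with the annotated genes AC073508.2 and COMMD3-BMI1 and had 0 intronic barcodes in all 48 libraries, so their levels are uncertain. SRCAP, CHD2 and CHD4 also share exons on the same strand with annotated protein-coding genes, but had intronic barcodes.

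The spread of each gene was compared between cells and aliquots over 9992 genes. The test asks whether the dispersion, the variance beyond counting error relative to the squared mean, differs between the 2 kinds of library. At an adjusted p under 0.05 it called 21 genes with larger dispersion in cells, 0.21% of those tested, and 1 gene with larger dispersion in aliquots, 0.01%. The dispersion test and the limma test on absolute deviations each called 0 of the 43 genes described here. Over all 9992 genes limma called 0 with larger spread in cells, and few in aliquots. Its 0 in cells therefore does not set the 43 apart from other genes. With either test, 0 calls do not show that the spread was equal. At an unadjusted p under 0.05 in the dispersion test, 4 of the 43 had larger dispersion in cells, where 6.85% of all genes did, and 0 had larger dispersion in aliquots, where 2.37% did. With the limma test 2 of the 43, BAZ2A and RBBP4, had a larger spread in cells at an unadjusted p under 0.05, where 3.67% of all genes did, and 1, BAZ1B, had a larger spread in aliquots, where 3.54% did.

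The median coefficient of variation (CV) of the 43 genes was 31.9% over cells and 29.2% over aliquots, with a median ratio of 1.02. Over all 9992 genes that ratio was 1.05, and over 2143 other genes between the lower and upper quartile of the members' levels it was 1.14. The CV includes counting error, and aliquots had on average fewer exonic barcodes than cells. The median dispersion, which leaves counting error out, was 0.0652 in cells and 0.0436 in aliquots for the 43 genes. Over all 9992 genes it was 0.137 in cells and 0.101 in aliquots. The dispersion estimate was larger in cells for 29 of the 43, against 59.6% of all genes. By family it was larger in cells for 7 of 11 SWI/SNF genes, 4 of 7 ISWI and BAZ genes, 6 of 8 CHD genes, 2 of 4 genes of the INO80 class with ATRX, and 10 of 13 Polycomb genes. For 6 of the 43 genes, BAZ2A, SUZ12, RBBP4, RNF2, BMI1 and CBX8, the aliquot estimate sat at its lower limit of 0.001, as it did for 10.5% of all genes.

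**Figure D2:**
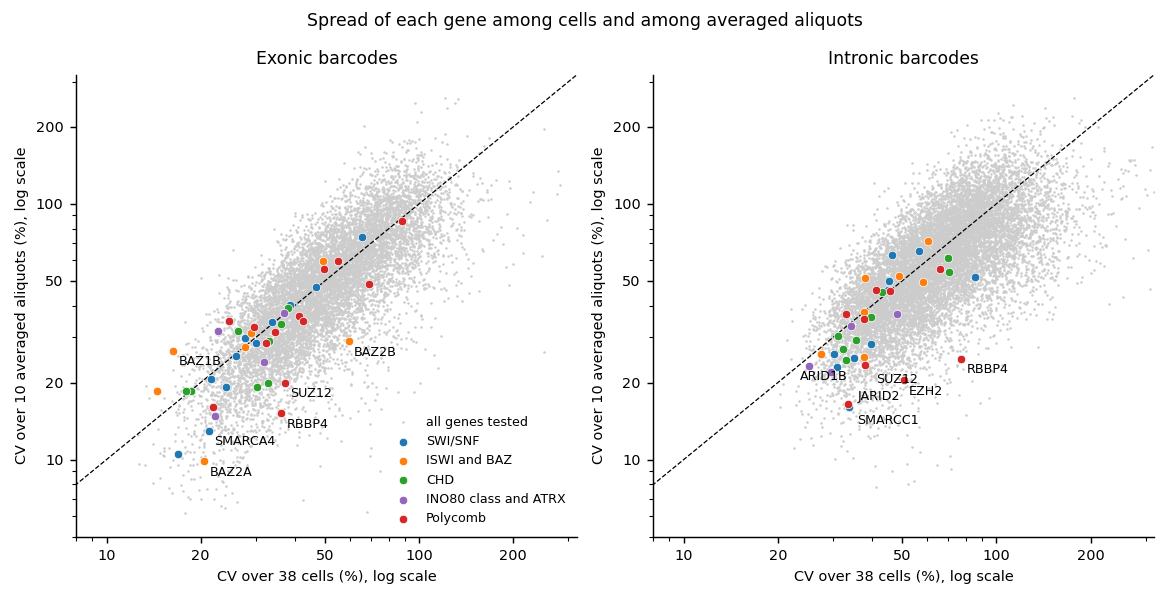
Coefficient of variation over 38 cells and over 10 averaged aliquots, in percent on log axes, for exonic barcodes on the left and intronic barcodes on the right. Grey points are all tested genes, coloured points the members by family, and the dashed line marks equal spread; BAZ2A, SUZ12 and RBBP4 show larger spread in cells in exons, and EZH2 and RBBP4 in introns.

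Among the SWI/SNF motors, SMARCA4 exons were at 329.9 to 769 CPM in cells (median 542) and 459 to 707 CPM in aliquots (median 526). Below all aliquots lay 10 cells, above all of them 5, and inside their range 23 of the 38. Its CV was 21.3% over cells and 12.9% over aliquots, the smallest p of the SWI/SNF genes (dispersion test, p = 0.0582, Benjamini-Hochberg adjusted p = 0.563). The alternative motor SMARCA2 was at 4.92 to 84.3 CPM in cells (median 38.9) and 11.9 to 84.00 CPM in aliquots (median 52.6), with 3 cells below all aliquots and 1 above them. Its CV was 46.9% over cells and 47.4% over aliquots. The log2 ratio of SMARCA2 to SMARCA4 per kilobase within a library was −3.97 ± 0.91 over cells and −3.58 ± 0.83 over aliquots, and SMARCA4 was the higher in all 38 cells and all 10 aliquots.

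The scaffold SMARCC1 had the lowest exonic CV over cells of the 11 SWI/SNF genes, at 437 to 1091 CPM in cells (median 833, CV 16.9%) and 759 to 1031 CPM in aliquots (median 901, CV 10.5%). Of the cells, 11 lay below all aliquots and 2 above them. The core subunits SMARCB1, SMARCD1 and SMARCD2 had CVs of 21.5%, 27.7% and 38.6% over cells and 20.7%, 29.8% and 40.3% over aliquots. SMARCD1 exceeded SMARCD2 per kilobase in 30 of 38 cells and 9 of 10 aliquots. ARID1A and ARID1B, DNA-binding subunits of which a BAF complex holds one or the other, averaged 309.7 ± 74.5 and 195 ± 50.4 CPM over cells, and 321 ± 61.8 and 204 ± 51.5 CPM over aliquots. ARID1A was the higher per kilobase in 35 of 38 cells and 9 of 10 aliquots. ARID2 and PBRM1, which define the PBAF form, had CVs of 33.8% and 29.95% over cells and 34.5% and 28.5% over aliquots. The median CV of the 11 SWI/SNF genes was 27.7% over cells and 28.5% over aliquots.

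In the ISWI group, BAZ2A and BAZ2B had the smallest p-values. BAZ2A, the large subunit of the NoRC complex that silences ribosomal RNA genes, was at 251 to 557 CPM in cells (median 381) and 249 to 365 CPM in aliquots (median 331). Above all 10 aliquots lay 25 of 38 cells, 13 lay inside the aliquot range, and 0 lay below it. Its CV was 20.5% over cells and 9.86% over aliquots, a ratio of 2.08 (dispersion test, p = 0.0251, Benjamini-Hochberg adjusted p = 0.456). BAZ2A exons overlap those of RBMS2 on the other strand in the annotation.

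BAZ2B, a bromodomain protein related to it, was at 11.1 to 153 CPM in cells (median 56.5) and 28.5 to 91.3 CPM in aliquots (median 67.1). Above all aliquots lay 7 cells and below them 6, and the CV was 59.5% over cells and 29.01% over aliquots (dispersion test, p = 0.0300, Benjamini-Hochberg adjusted p = 0.478). BAZ2A exceeded BAZ2B per kilobase in all 48 libraries, by 2.79 ± 1.01 on the log2 scale in cells and 2.26 ± 0.52 in aliquots.

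BAZ1B, the WSTF subunit of ISWI complexes, was the gene with the smallest p among those whose spread was larger in the aliquots. It was at 236 to 484 CPM in cells (median 354, CV 16.3%) and 223 to 464 CPM in aliquots (median 348, CV 26.6%), and the difference did not pass (dispersion test, p = 0.0535, Benjamini-Hochberg adjusted p = 0.549). All but 2 cells lay inside the aliquot range. Its relative BAZ1A, the ACF subunit, exceeded it per kilobase in 3 of 38 cells and 1 of 10 aliquots. BPTF, the large subunit of the NURF complex, had the lowest CV over cells of the 43 genes, 14.5%, with 18.6% over aliquots. The ISWI motors SMARCA5 and SMARCA1 averaged 161 ± 46.9 and 74.4 ± 36.5 CPM over cells, and 148 ± 45.9 and 57.5 ± 34.4 CPM over aliquots. SMARCA1 exceeded SMARCA5 per kilobase in 14 of 38 cells and 3 of 10 aliquots, with a log2 ratio of −0.26 ± 0.79 in cells and −0.61 ± 0.98 in aliquots.

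Exonic CVs of the 8 CHD genes ran from 18.01% for CHD8 to 37.99% for CHD6 over cells, and the same genes had 18.5% and 39.2% over aliquots. CHD4, the main NuRD motor, was at 289 to 704 CPM in cells (median 453) and 386 to 653 CPM in aliquots (median 479). Its relative CHD3 was at 68.8 to 447 CPM in cells (median 209) and 119 to 335 CPM in aliquots (median 249). CHD4 was the higher per kilobase in all 48 libraries, with a log2 ratio of CHD3 to CHD4 of −1.26 ± 0.57 in cells and −1.36 ± 0.63 in aliquots. CHD1, which binds nucleosomes of active genes, and CHD2 were close to each other, with a log2 ratio of −0.01 ± 0.66 in cells and −0.12 ± 0.33 in aliquots. CHD1 had the smallest p of the family, with a CV of 30.3% over cells and 19.2% over aliquots (dispersion test, p = 0.0816, Benjamini-Hochberg adjusted p = 0.609). CHD7, the gene of CHARGE syndrome, had CVs of 32.8% over cells and 19.96% over aliquots, and CHD9 26.4% and 31.7%.

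SRCAP exons were at 709 to 1603 CPM in cells (median 973, CV 22.2%) and 714 to 1208 CPM in aliquots (median 1015, CV 14.8%). Above all aliquots lay 6 cells and below them 2. EP400, the motor of the TIP60 acetyltransferase complex, had a CV of 22.7% over cells and 31.9% over aliquots, and INO80, the motor of its own complex, 36.9% and 37.4%. ATRX, which deposits histone H3.3 with its partner DAXX, was at 131 to 467 CPM in cells (median 262) and 144 to 339.5 CPM in aliquots (median 311). Above all aliquots lay 10 cells and below them 1, and the CVs of 31.9% over cells and 24.2% over aliquots gave p = 0.539 in the dispersion test, with a Benjamini-Hochberg adjusted p of 0.901.

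Among the PRC2 genes, exons of the methyltransferase EZH2 were at 76.5 to 309.7 CPM in cells (median 171, CV 34.5%) and 91.9 to 317 CPM in aliquots (median 188, CV 31.6%). Its paralogue EZH1 was at 41.2 to 274 CPM in cells (median 102) and 72.04 to 210.0 CPM in aliquots (median 123). EZH1 exceeded EZH2 per kilobase in 1 of 38 cells and 1 of 10 aliquots, with a log2 ratio of −1.48 ± 0.78 in cells and −1.40 ± 0.89 in aliquots. SUZ12, a scaffold of the complex, was at 38.9 to 210.4 CPM in cells (median 111) and 67.9 to 141 CPM in aliquots (median 110.1). Above all aliquots lay 5 cells and below them 6, and its CV was 37.1% over cells and 19.9% over aliquots (dispersion test, p = 0.0272, Benjamini-Hochberg adjusted p = 0.4659). EED, which reads the methyl mark, averaged 35.5 ± 17.6 CPM over cells and 32.3 ± 17.9 CPM over aliquots.

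RBBP4, a histone-binding subunit that PRC2 shares with NuRD and other complexes, had the smallest exonic p of the 43 genes. It was at 30.2 to 223 CPM in cells (median 103) and 105 to 184 CPM in aliquots (median 164). Below all aliquots lay 19 cells, inside their range 17 and above it 2. The CV was 36.2% over cells and 15.2% over aliquots, a ratio of 2.39 (dispersion test, p = 0.0247, Benjamini-Hochberg adjusted p = 0.453). Its mean was 109 CPM over cells and 157 CPM over aliquots, a ratio of 0.694, inside the limit of 1.5-fold used for means. The paralogue RBBP7 averaged 454 ± 99.6 CPM over cells and 517 ± 82.8 CPM over aliquots, and the log2 ratio of RBBP4 to RBBP7 per kilobase was −3.88 ± 0.62 over cells and −3.48 ± 0.29 over aliquots. In the annotation RBBP4 exons overlap those of SYNC, and RBBP7 exons those of TXLNG, on the other strand. JARID2 and MTF2, accessory proteins that help PRC2 to its sites, had CVs of 29.7% and 24.6% over cells and 32.9% and 34.7% over aliquots.

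Most PRC1 genes were counted with few barcodes. The ligase RNF2 gave 372 exonic barcodes over all cells and 93 over all aliquots, its paralogue RING1 471 and 78, CBX8 152 and 38, and BMI1 121 and 15. BMI1 had a barcode in 32 of 38 cells and 8 of 10 aliquots. RNF2 exceeded RING1 per kilobase in 2 of 38 cells and 2 of 10 aliquots. CBX2, a PRC1 reader of methylated histone H3, was better counted, at 26.2 to 169 CPM in cells (median 113, CV 32.3%) and 56.97 to 158 CPM in aliquots (median 114, CV 28.7%). It exceeded CBX8 per kilobase in 37 of 38 cells and all 10 aliquots.

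**Figure D3:**
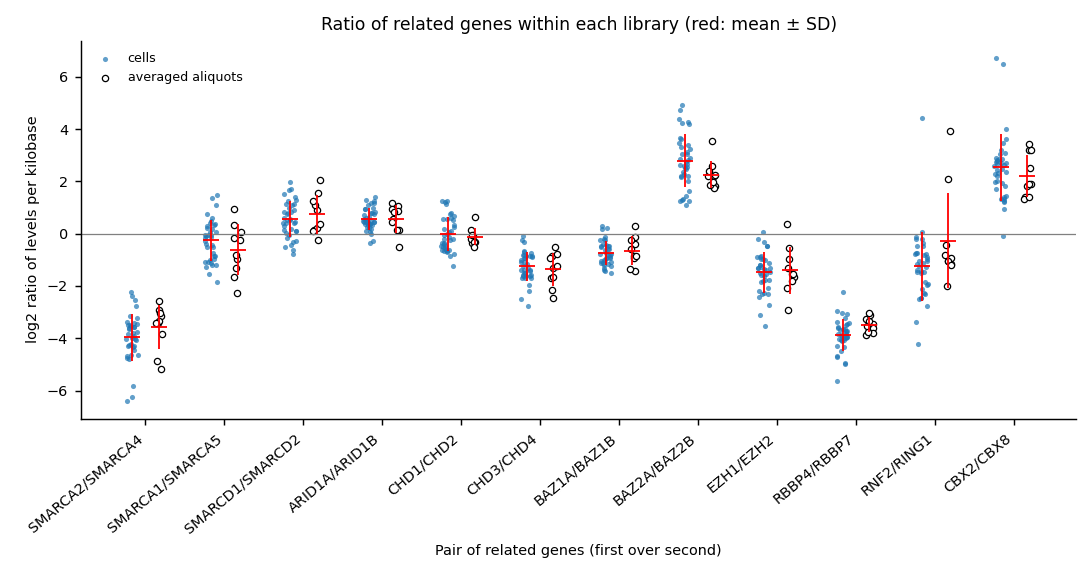
Log2 ratio of the levels per kilobase of related genes within each library, the first gene over the second. Filled points are the 38 cells, open points to their right the 10 averaged aliquots, and red marks the mean ± SD; SMARCA2 lies below SMARCA4, and CHD3 below CHD4, in all 48 libraries, while the points of CHD1/CHD2 and SMARCA1/SMARCA5 straddle 0.

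By the ratio of exonic means, 1 of the 43 genes was past 1.5-fold higher in cells, where 7.06% of all tested genes were, and 0 were past 1.5-fold lower, where 3.8% were. The gene was BMI1, with a mean of 14.6 ± 12.8 CPM over cells and 7.78 ± 6.68 CPM over aliquots (ratio 1.88), at the few barcodes given above. After it the highest ratios of means were 1.29 for SMARCA1, 1.26 for RING1, 1.22 for JARID2 and 1.21 for ARID2. The lowest after RBBP4 were 0.744 for SMARCA2, 0.813 for INO80, 0.837 for RNF2 and 0.85 for CBX8. Means over cells were above those over aliquots for 21 of the 43 genes. The median log2 ratio of exonic means was −0.006 over the 43 and 0.024 over all 9992 genes. With medians in place of means RBBP4 was past the limit as well.

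Introns, which are read mostly from unspliced RNA, gave a second view of 38 of the 44 genes. The other 6 were SMARCC2, SMARCE1 and BMI1, with 0 intronic barcodes, and RING1, CBX2 and CBX8, which were under 10 CPM. The dispersion test over 12439 genes called 10 with larger dispersion in cells, 0.0804% of them, and 1 with larger dispersion in aliquots, 0.00804%. It called 0 of the 38, as did limma, which called 0 of all 12439 genes with larger spread in cells. At an unadjusted p under 0.05 the dispersion test gave 4 of the 38 with larger dispersion in cells, where 6.79% of all genes were, and 0 with larger dispersion in aliquots, where 3.67% were, and limma gave 3 with larger spread in cells, where 3.56% of all genes were, and 0 with larger spread in aliquots, where 2.94% were. The median CV of the 38 was 38.9% over cells and 35.9% over aliquots, with a median ratio of 1.16, against 1.09 over all 12439 genes and 1.12 over 2114 other genes of like level. The dispersion estimate was larger in cells for 24 of the 38, against 54.3% of all genes. Its median was 0.119 in cells and 0.102 in aliquots for the 38, and 0.260 and 0.228 over all 12439 genes.

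EZH2 introns were at 34.7 to 455 CPM in cells (median 163) and 150.0 to 271 CPM in aliquots (median 179). Above all aliquots lay 5 cells and below them 15, and the CV was 50.5% over cells and 20.4% over aliquots, a ratio of 2.47 (dispersion test, p = 0.00456, Benjamini-Hochberg adjusted p = 0.245). In exons the ratio of the CVs of EZH2 was 1.09. RBBP4 introns were at 59.3 to 808 CPM in cells (median 149.8) and 133 to 286 CPM in aliquots (median 173), with CVs of 77.1% and 24.8% (dispersion test, p = 0.00769, Benjamini-Hochberg adjusted p = 0.297). Cell 32 was at 643 CPM and cell 14, the third highest, at 382 CPM. Cell 37 had the highest value, and without it the CV over cells was 58.7%, which still includes cell 32. In cell 37 the exons of RBBP4 were at 70.5 CPM, below all aliquots.

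SMARCC1 introns were at 221 to 732 CPM in cells (median 371, CV 33.7%) and 395 to 662 CPM in aliquots (median 471, CV 15.99%), and 19 of 38 cells lay below all aliquots (dispersion test, p = 0.0182, Benjamini-Hochberg adjusted p = 0.364). JARID2 introns were at 154 to 743 CPM in cells (median 475, CV 33.5%) and 348 to 597 CPM in aliquots (median 514, CV 16.5%). Above all aliquots lay 11 cells and below them 11 (dispersion test, p = 0.0197, Benjamini-Hochberg adjusted p = 0.365). SUZ12 introns had CVs of 38.1% over cells and 23.5% over aliquots (adjusted p = 0.581 in the same test), and ARID1B introns 34.99% and 24.9% (adjusted p = 0.672). ARID1B also had the highest intronic level of the 44 genes, 710.0 ± 248 CPM over cells and 670.3 ± 167 CPM over aliquots.

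By the ratio of intronic means, 1 of the 38 genes was past 1.5-fold higher in cells, where 12.1% of all genes were, and 1 past 1.5-fold lower, where 6.58% were. The first was the ISWI motor SMARCA1, at 8.57 to 144 CPM in cells (median 43.3) and 9.23 to 63.99 CPM in aliquots (median 17.7), a ratio of means of 2.10. It lay above the aliquot mean in 31 of 38 cells, and above all aliquots in 11. An aliquot held 2 to 14 intronic barcodes of SMARCA1, so the ratio of 2.10 rests on few counts. The second was the PRC2 subunit EED, at 5.52 to 80.9 CPM in cells (median 44.2) and 19.7 to 119 CPM in aliquots (median 62.3), a ratio of 0.649. Below the aliquot mean lay 35 of 38 cells, and below all aliquots 5. The log2 ratio of EED was −0.62, and it came inside the limit without aliquot 2, at −0.49, and without aliquot 3, at −0.53. The next lowest ratios were 0.685 for SMARCD1, 0.692 for SMARCA4, 0.722 for CHD4 and 0.722 for ARID1A, and the next highest 1.26 for BAZ2B, 1.21 for RBBP7, 1.15 for ARID2 and 1.06 for ARID1B. Means over cells were above those over aliquots for 9 of the 38 genes. The median log2 ratio of intronic means was −0.178 over the 38 and 0.003 over all 12439 genes.

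The share of a gene's barcodes that fell in introns separated the 41 genes that had any. It was highest for ARID1B at 78.4% ± 10.3 in cells and 81.4% ± 3.36 in aliquots, SMARCA2 at 74.9% ± 13.1 and 74.2% ± 11.1, JARID2 at 74.7% ± 9.36 and 82.96% ± 5.03, RNF2 at 74.4% ± 14 and 78.05% ± 9.12, and BAZ2B at 66.8% ± 15.3 and 61.8% ± 11.4. It was lowest for CBX2 at 7.88% ± 8.58 in cells and 11.9% ± 8.72 in aliquots, CHD3 at 9.45% ± 6.08 and 13.7% ± 8.47, BAZ2A at 11.96% ± 6.53 and 17.9% ± 8.67, CHD4 at 12.4% ± 7.74 and 16.6% ± 7.51, and SMARCD1 at 12.7% ± 8.19 and 19.04% ± 11.3. As a description over the 41 genes, the share in cells was higher where the introns of the principal transcript were longer, with a Spearman coefficient of 0.71. The mean share was lower in cells than in aliquots for 35 of the 41, as it was for the libraries as a whole.

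Exon and intron levels of the same gene were weakly related across the 38 cells. The median Spearman coefficient was 0.233 over the 38 genes tested in both, and 0.185 over all 7891 such genes. The highest was 0.56 for CHD1 and the lowest −0.24 for SMARCD1. EZH2 had 0.43, SUZ12 0.33 and RBBP4 −0.14. Both counts come from the same library and share its depth.

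The place of a cell in the division cycle was described by a G1/S score over 23 genes and a G2/M score over 24 genes, which ran against each other over the 38 cells with a Spearman coefficient of −0.79. BAZ2A exons had the largest coefficient with G1/S, −0.49, and ARID2 exons the largest with G2/M, 0.47. BAZ2A had 0.46 and PBRM1, the PBAF partner of ARID2, 0.43 with G2/M. Of the 43 genes, 3 had a coefficient of at least 0.4 with G2/M, where 2.93% of all tested genes did, and 0 had −0.4 or less, where 1.76% did. With G1/S, 2 had −0.4 or less, BAZ2A and CHD6 (−0.40), where 2.59% of all genes did, and 0 had at least 0.4, where 2.93% did. CHD2 had 0.40 with G2/M, just under the limit, and ARID1B −0.39 with G1/S. EZH2, known as a target of E2F factors in dividing cells, had 0.21 with G1/S and −0.21 with G2/M in exons.

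In introns, ARID1A had the largest coefficients, 0.55 with G2/M and −0.52 with G1/S, followed by CHD2 with 0.45 and −0.47 and SRCAP with 0.42 and −0.41, and BPTF had −0.44 with G1/S. Of the 38 genes, 3 were at 0.4 or more with G2/M, where 2.03% of all genes were, and 0 at −0.4 or less, where 1.73% were. With G1/S, 4 were at −0.4 or less, where 2.69% of all genes were, and 0 at 0.4 or more, where 1.57% were. The median coefficient of the 38 with G2/M was 0.11. Over all genes the median was 0.02, with a lower quartile of −0.11 and an upper quartile of 0.15. Without cells 15 and 32, which were farthest from the median G2/M score, the coefficient with G2/M was 0.45 for BAZ2A, 0.42 for ARID2 and 0.49 for PBRM1 exons, and 0.48 for ARID1A, 0.37 for CHD2 and 0.34 for SRCAP introns. These are descriptions over cells of 1 clone, and the values of a cell share its library and depth.

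**Figure D4:**
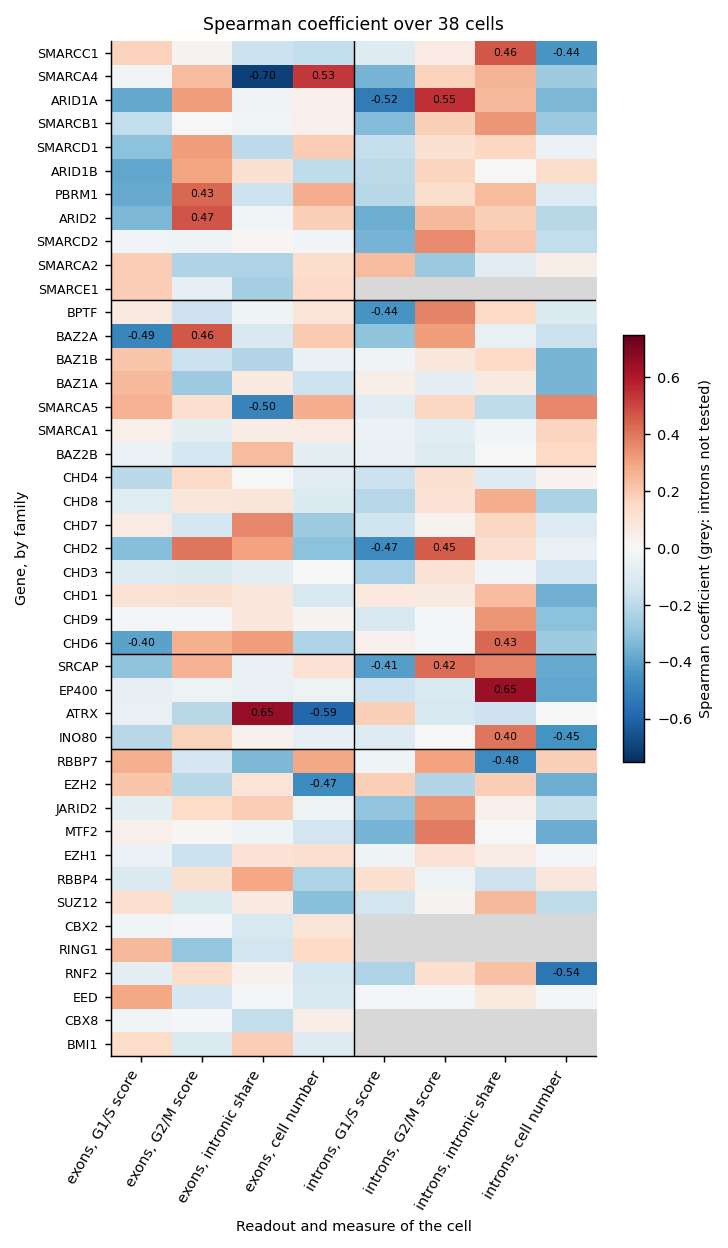
Spearman coefficients over the 38 cells between each gene's level and 4 measures of the cell, for exonic barcodes in the left 4 columns and intronic barcodes in the right 4. Numbers are printed where the size is at least 0.4 and grey marks introns under the filter; SMARCA4 at −0.70 and ATRX at 0.65 with the intronic share have the largest values in exons, and EP400 at 0.65 in introns.

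Of the 4 measures, the intronic share of the whole library gave the largest coefficient of a gene. The share ran from 32.7% to 66.8% over cells and from 54.9% to 60.4% over aliquots. SMARCA4 exons were lower where the share was higher, with a Spearman coefficient of −0.70 (Pearson −0.65 on log2 values), and so were SMARCA5 exons with −0.50. ATRX exons ran the other way, with 0.65 (Pearson 0.60). Of the 43 genes, 2 were at −0.4 or less, where 7.03% of all genes were, and 1 at 0.4 or more, where 4.31% were. Without cells 36 and 9, which were farthest from the median share, the coefficients were −0.65 for SMARCA4, −0.44 for SMARCA5 and 0.67 for ATRX. In introns EP400 had 0.65, SMARCC1 0.46, CHD6 0.43, INO80 0.40 and RBBP7 −0.48, so 4 of the 38 were at 0.4 or more, where 4.19% of all genes were, and 1 at −0.4 or less, where 4.65% were. Without the same 2 cells these 5 were at 0.58, 0.38, 0.38, 0.31 and −0.56.

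The intronic share was itself lower in cells with a higher number in the labels, with a coefficient of −0.53, and some of the same genes followed that number. SMARCA4 exons had 0.53 with it, ATRX −0.59 and EZH2 −0.47. The labels do not say what the number stands for, and the parts of the share and of the number in these relations were not tested. Of the 43 genes, 1 was at 0.4 or more with the number, where 4.05% of all genes were, and 2 at −0.4 or less, where 2.82% were. In introns RNF2 had −0.54, INO80 −0.45 and SMARCC1 −0.44, which made 3 of 38 at −0.4 or less, where 3.94% of all genes were, and 0 were at 0.4 or more, where 3.08% were.

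**Figure D5:**
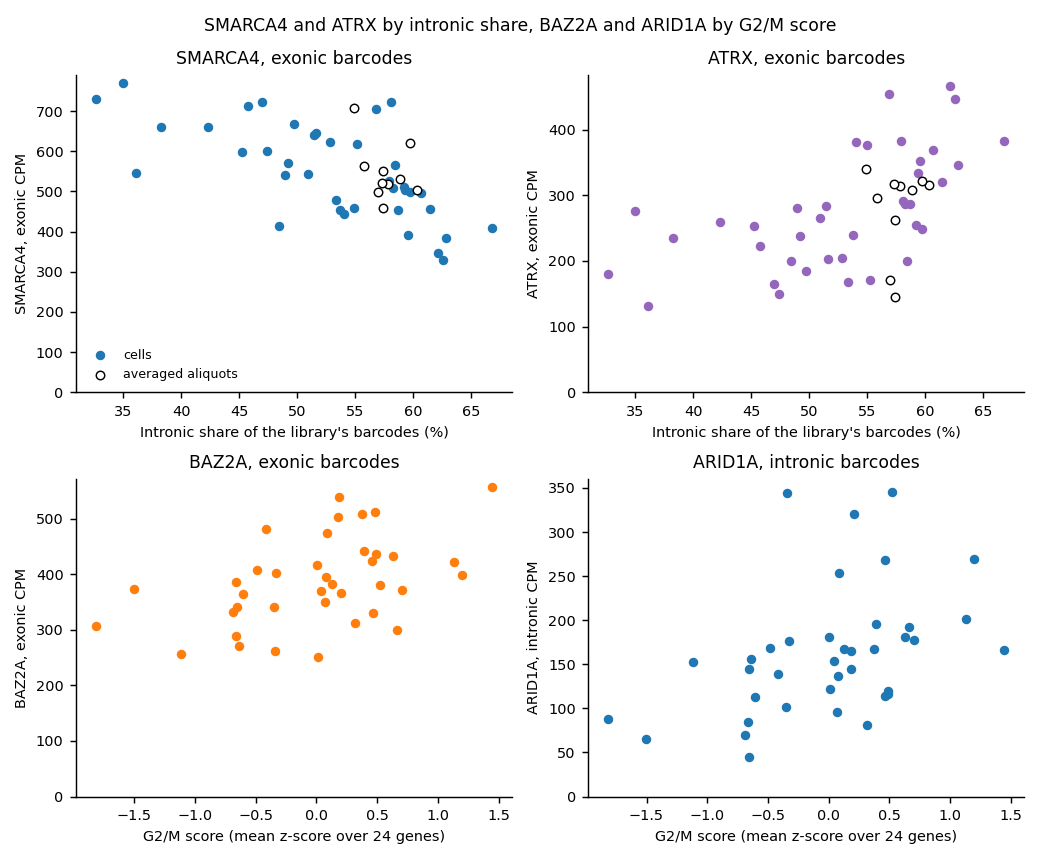
Levels of SMARCA4 and ATRX exons against the intronic share of the library in percent (top), and of BAZ2A exons and ARID1A introns against the G2/M score (bottom), in CPM. Filled points are the 38 cells, and open points, in the top panels only, are the 10 averaged aliquots. SMARCA4 is highest, at 769 CPM, in cell 9, one of low intronic share, and ATRX is highest, at 467 CPM, in cell 5, one of high share.

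Pairs of the 43 genes were mostly unrelated in exons across cells. The median Spearman coefficient over the 903 pairs was 0.01, and 20 pairs were at 0.4 or more and 18 at −0.4 or less, where 1.30% and 1.12% of all pairs of tested genes were. ARID1A and PBRM1, of the BAF and PBAF forms of SWI/SNF, had 0.57 over 38 cells and −0.22 over 10 aliquots. ARID2 and PBRM1, both in PBAF, had 0.42 and −0.30, and SRCAP and EP400 had 0.42 and −0.02. The motors SMARCA4 and ATRX ran against each other at −0.49 over cells and had 0.48 over aliquots, and SMARCA1 and EP400 had −0.52 and 0.30. RBBP4 and BMI1 had the highest value over cells, 0.65, with −0.74 over aliquots, at the few BMI1 barcodes given above, and CHD9 and EZH1 had 0.57 and −0.33. Of the other pairs past 0.4 in size over cells, some kept their sign over aliquots and others changed it. BAZ2A and CHD3 kept it, at 0.45 and 0.59, and so did SMARCB1 and CHD1, at −0.44 and −0.42. ARID1B and CBX2 changed it, at 0.44 and −0.47, and so did CHD1 and EP400, at −0.51 and 0.43. A coefficient over 10 aliquots is less certain than one over 38 cells. Within families the median over cells was 0.05 for SWI/SNF, 0.02 for ISWI and BAZ, 0.05 for CHD, 0.13 for the INO80 class with ATRX and 0.01 for Polycomb. Genes of the same library share its depth and capture, so these coefficients are descriptions.

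A further list of 70 genes, of these complexes and of other remodellers such as HELLS, was counted for comparison, of which 69 were in the files, 64 passed the exonic filter and 55 the intronic one. The dispersion test called 0 of them in exons and 0 in introns. At an unadjusted p under 0.05, 5 of the 64 had larger dispersion in cells and 1 in aliquots, beside the 6.85% and 2.37% of all genes. The smallest p-values were those of BCOR, a subunit of variant PRC1, with CVs of 24.99% over cells and 9.22% over aliquots, and of CBX6, a PRC1 reader, with 35.8% and 13.3% (dispersion test, Benjamini-Hochberg adjusted p = 0.217 for both). POLE3, a histone-fold partner of ISWI, came next, with 25.9% and 45.8% (adjusted p = 0.413 in the same test). In introns, 0 of the 55 had larger dispersion in cells at an unadjusted p under 0.05, where 6.79% of all genes did. Larger dispersion in aliquots was found for 3, KDM2B, ACTR6 and PCGF5, where 3.67% of all genes had it. Their CVs were 36.5%, 49.6% and 53.6% over cells and 56.97%, 62.4% and 76.5% over aliquots.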

How the data were processed

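The series lists 91 samples, of which 48 libraries of HEK293T clone 1 were analysed (38 single cells and 10 averaged aliquots) and 43 were not analysed here. Groups and numbers come from the labels. The deposited files hold whole-number counts per Ensembl gene of exonic and intronic reads and random barcodes, 1 file per library, and the authors deposited these counts without normalization. Per the submitters' processing notes, TopHat, HTSeq and the build hg19 were used. Versions, annotation and use of strand: not given in the sources used here. Overlapping genes may therefore share reads. Exons of 24 of the 44 genes overlap another gene in GENCODE 29. That release, on another build, gave names, overlaps and the longest principal transcript for levels per kilobase. Merged exons, planned first, were replaced by it because they include readthrough and retained-intron transcripts.

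The 44 genes and all lists and rules were chosen with earlier results of these data known. Counts were scaled by TMM (edgeR 4.0.16, R 4.3.3). Spread was tested, two-sided, by comparing negative-binomial fits with separate and with common dispersions for cells and aliquots, with Cox-Reid adjusted profile likelihoods over 60 dispersions from 0.001 to 20, by a likelihood ratio, in Python 3.11.15 with numpy 2.4.6, scipy 1.17.1 and numba 0.67.0, on genes averaging 10 CPM or more, with Benjamini-Hochberg adjustment over all genes tested and a threshold of 0.05. It was tested on simulated data, and the share of differences that it or limma recovers is not given here. The alternatives were limma 3.58.1 on absolute deviations of log2 CPM (prior count 1), other scalings, filters, reads, thinned counts, trends and each library left out. Mean levels had no test and were called past 1.5-fold. Coefficients over cells are descriptions. Paralogue ratios used CPM + 1. Score genes were z-scored log2(CPM + 5). Figures were drawn with matplotlib 3.10.9.

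Named genes were the 6 with the smallest p in each test, the listed paralogue pairs, the 5 highest and 5 lowest ratios of means and intronic shares, and the 6 with the largest coefficients with the cycle scores. Others were described by family, by the largest coefficients with other measures, or by pair, after their values were seen. Within each group, pairs of libraries differed by at least 2.16 (cells) and 2.09 (aliquots) in chi-square per degree of freedom, so none was counted as a duplicate.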

Additional observations from a re-analysis of the deposited data

Results flagged for a closer look

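In 7 of 93 sets of 10 aliquot values, 1 aliquot lay far from the nearest other one, measured by its gap over the whole range. Chance alone gives about 1 in 20. In exons the highest aliquot of PBRM1 was at 299 CPM, with the next at 215 CPM, that of JARID2 at 247 CPM with the next at 169.9 CPM, and that of BMI1 at 22.6 CPM with the next at 11.4 CPM. The lowest aliquot of BAZ2A was at 249 CPM, with the next at 304 CPM. In introns the highest aliquot of SMARCA2 was at 304 CPM, with the next at 185 CPM, and that of SMARCA1 at 64.0 CPM with the next at 37.9 CPM. The log2 ratio of BAZ2A to BAZ2B was 3.53 in the highest aliquot and 2.57 in the next.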

How the results depend on the processing

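No gene of the 44 was called for spread, in exons or introns, under any of the 11 alternatives or with any of the 48 libraries left out. The smallest adjusted p for a member lay between 0.179 and 0.960 over the alternatives. The direction of the 12 named differences in spread was the same in every one. Members with larger exonic dispersion in cells at an unadjusted p under 0.05 numbered 4 (6.85% of all genes), against 2 with limma (3.67%) and 1, BAZ2B, after thinning (5.7%). With reads they again numbered 4 (6.77%), but these were CHD1, CHD7, RBBP4 and SMARCC1, without BAZ2A, BAZ2B and SUZ12. In introns they numbered 4 (6.79%), against 3 with limma (3.56%, without RBBP4), 3 with reads (6.76%, CHD2, EZH2 and SMARCC1), 3 with a trend on the cell number (5.9%) or on the intronic share (5.91%), both without SMARCC1, and 2, EZH2 and RBBP4, after thinning (4.92%). With libraries left out these numbers ranged from 3 to 5 and from 4 to 5.

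Over all genes the exonic count of 21 larger in cells was 0 with limma, 10 without a filter, 35 among genes averaging 50 CPM or more and 47 with reads, and ranged from 6 to 27 with 1 library left out, where it was under 14 without aliquot 1, 5, 6, 7, 8, 9 or 10. The count of 1 larger in aliquots was 3 with limma, 3 with reads, 0 without a filter, 0 after thinning and 2 with a trend on the cell number, and ranged from 0 to 3. The intronic count of 10 was 0 with limma, 16 at 50 CPM, 4 with reads, 5 after thinning and 5 with a trend on the intronic share, an alternative chosen after seeing the data, and ranged from 4 to 12, with 4 to 6 without aliquot 1, 5, 8, 9 or 10. The intronic count of 1 larger in aliquots was 0 without a filter, with reads, after thinning and with either trend, and ranged from 0 to 3.

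Past 2-fold no exonic mean and no lower intronic mean was called. With reads, SMARCA2, RBBP4 and CBX8 were lower in exons (3 in place of 0), and SMARCA4 joined EED in introns (2 in place of 1). With medians, RBBP4 was lower in exons (1 in place of 0), BAZ2B joined SMARCA1 as higher in introns (2 in place of 1), and CHD4 took the place of EED. With median-of-ratios factors EED was inside the limit (0 in place of 1). With 1 library left out, chosen after seeing the data, the intronic count lower in cells ranged from 0, without aliquot 3, to 3, without aliquot 4, and was 2 without cell 3, 27 or 37 or aliquot 1, 6 or 10, and without aliquot 2 SMARCD1 took the place of EED.

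The labels give cells 1 to 10 and aliquots 1 to 10 the same numbers. Same-numbered libraries did not deviate together (coefficients from −0.038 to 0.033 in exons, and only number 3 was closest to its own), so the numbers do not pair them. With limma and the number as a replicate block (cells 1 to 10 and the 10 aliquots), 0 genes were called in either direction in exons and introns with and without the block. At an unadjusted p under 0.05, with the block, 2 members had larger spread in cells and 1 in aliquots, in exons as in introns. Of all genes, 4.14% had larger spread in cells and 1.43% in aliquots in exons, and 2.77% and 2.16% in introns. Without the block 1 exonic and 2 intronic members had larger spread in cells, and 1 of each in aliquots. The shares of all genes were then 4.07% and 1.41% in exons, and 2.78% and 2.19% in introns. The causes of these changes were not tested. Depth limits genes with few barcodes, such as BMI1 and CBX8.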
